A study of Homo sapiens with 16 samples.

Results

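Most of the genes described here act in cell cycle arrest, DNA repair, stress signalling or cell death, while MDM2 restrains p53. They are known as targets of p53 or as inhibitors of cyclin-dependent kinases (CDKs): CDKN1A, CDKN1B, CDKN2C, MDM2, GADD45A, BAX, FAS, CCNG1 and SESN1. All probes whose symbol in the platform's probe table is one of these 9 gene names were taken, which gave 10 of the 30968 probes. Each gene had 1 probe except FAS, which had 2, and no gene was without one. Of the 10 probes, 9 had an intensity above 0 in all 16 samples and were tested.

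The samples were HepG2 cells, a human liver tumour line, and their RNA was read on 1-colour arrays with the dye Cy5. Per the labels, 4 biological replicates were given elaidic acid, 4 oleic acid and 4 stearic acid, each at 100 µM for 7 days, and 4 control samples had no fatty acid added over the same 7 days; all were kept without serum. Elaidic acid is the trans isomer of oleic acid, which is cis, and stearic acid is the saturated acid of the same chain length. HepG2 is a single tumour-derived line, and the labels record no vehicle for the control samples.

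The protein p53 is kept scarce by MDM2, which marks it for destruction, and DNA damage or other stress releases it from MDM2. It then switches on genes that hold the cell before DNA synthesis, that repair DNA, or that open the mitochondrion and end the cell, and it switches on MDM2 itself, which closes the loop. CDK inhibitors bind cyclin-CDK complexes and keep the retinoblastoma protein in its growth-blocking state. CDKN1A is the classical p53 target among them, while CDKN1B and CDKN2C are mostly governed by growth signals and protein turnover.

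Deposited intensities were not scaled between samples, and the median intensity of an array ran from 19.95 to 76.1. The 2 dimmest arrays were control replicate 1 at 19.95 and oleic acid replicate 4 at 20.7. Array numbers in the labels form 2 blocks, named slide series A and B below. Series A holds 10 samples, with elaidic acid replicates 2 and 4, the 4 oleic acid samples and the 4 control samples. Series B holds 6, with elaidic acid replicates 1 and 3 and the 4 stearic acid samples. Stearic acid and control share no series, so that group and series cannot be told apart in their direct comparison. Among hepatocyte markers 8 of 10 had a probe, and 7 of these lay above the array median, with FGA at background. The summed intensity of the hepatocyte markers, not scaled between arrays, was 59682 to 164148 in elaidic acid samples, 15274 to 49065 in oleic acid samples, 117885 to 156987 in stearic acid samples and 15304 to 75321 in control samples. Stearic acid lay above oleic acid and control, and elaidic acid above oleic acid. The other pairs of groups overlapped. Of 14 markers of other cell types 12 had a probe, and 6 of them lay above the array median (CD14, INS, CDH5, COL1A1, DES and PDGFRB). PTPRC, CD3E, PECAM1, VWF, COL3A1 and GFAP lay below it. The summed intensity of the other-cell markers was 3844 to 5316 in elaidic acid samples, 2862 to 4998 in oleic acid samples, 3184 to 5005 in stearic acid samples and 3109 to 5591 in control samples. The part of either marker list in the results was not tested.

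Promoter windows are shown for 3 genes whose values are described in most detail, each the 250 bases before a transcription start in RefSeq on build GRCh38.p14, plus strand, 5′ to 3′. Windows were found for 8 of the 9 genes, 18 windows in all, and for GADD45A none. Capitals mark GGGCGG boxes in CDKN1A (chr6:36678464-36678713), a p53 full site in MDM2 at its downstream start (chr12:68808767-68809016) and CACGTG boxes in BAX (chr19:48954625-48954874).
CDKN1A: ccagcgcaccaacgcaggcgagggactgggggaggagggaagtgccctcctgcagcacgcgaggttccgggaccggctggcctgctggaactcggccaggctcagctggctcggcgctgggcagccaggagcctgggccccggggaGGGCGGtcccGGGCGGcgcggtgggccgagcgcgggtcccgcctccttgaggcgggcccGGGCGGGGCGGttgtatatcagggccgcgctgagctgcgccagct
MDM2: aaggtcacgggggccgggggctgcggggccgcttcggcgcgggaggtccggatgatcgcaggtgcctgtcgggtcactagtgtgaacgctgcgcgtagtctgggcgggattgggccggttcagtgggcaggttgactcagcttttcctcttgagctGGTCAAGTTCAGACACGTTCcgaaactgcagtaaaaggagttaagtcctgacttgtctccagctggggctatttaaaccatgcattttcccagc
BAX: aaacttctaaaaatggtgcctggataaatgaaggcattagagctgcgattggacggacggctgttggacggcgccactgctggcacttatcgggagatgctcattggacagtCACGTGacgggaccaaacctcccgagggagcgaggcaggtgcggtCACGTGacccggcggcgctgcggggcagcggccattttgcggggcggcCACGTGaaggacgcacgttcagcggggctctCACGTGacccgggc
The CDKN1A window holds 4 GGGCGG boxes, all on the printed strand after a search of both, of which the last pair overlaps by a base. This box was found in 16 of the 18 windows and in 42.6% of 35116 windows of the same length. The BAX window holds 4 CACGTG boxes, a motif that reads the same on both strands and that 6.34% of all windows hold. A p53 full site was searched as a pair of adjacent p53 half-sites with no spacer, at most 2 mismatches and the core C and G bases of each half-site kept. It was found in 0.242% of all windows and in 3 of the 18, which belong to 2 genes. In MDM2 the site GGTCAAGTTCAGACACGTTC (chr12:68808923-68808942) lies 94 to 75 bases before the start, with 2 mismatches. In FAS the site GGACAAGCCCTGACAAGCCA (chr10:88991309-88991328) lies 122 to 103 bases before one of its starts, also with 2 mismatches. A match is a description of these letters and says nothing of binding in these cells.

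Values per sample are given below as log2 intensity after quantile normalisation, in the order of replicates 1 to 4. CDKN1A encodes p21, which binds cyclin-CDK2 complexes and the replication clamp PCNA. It measured 7.57, 6.47, 7.66 and 6.74 in elaidic acid samples, 7.28, 6.50, 7.29 and 5.53 in oleic acid samples, 8.50, 7.93, 8.38 and 8.52 in stearic acid samples, and 5.90, 7.31, 6.86 and 7.11 in control samples. All 4 stearic acid samples lay above every other sample, and the remaining groups overlapped. Within the elaidic acid group the series B pair (7.57 and 7.66) was above the series A pair (6.47 and 6.74). In deposited intensity the stearic acid samples ran from 279 to 614 and the control samples from 26.8 to 207.

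CDKN1B encodes p27, an inhibitor of cyclin E-CDK2 that quiescent cells accumulate. Its values were 8.18, 6.43, 7.82 and 6.53 in elaidic acid samples, 6.28, 5.996, 6.74 and 5.09 in oleic acid samples, 8.29, 7.25, 7.96 and 7.62 in stearic acid samples, and 4.93, 7.18, 4.81 and 6.50 in control samples. The stearic acid group was above the oleic acid and control groups without overlap, with its lowest sample at 7.25 and the highest control sample at 7.18. As for CDKN1A, the elaidic acid samples split by series, and the series B pair at 8.18 and 7.82 lay within the stearic acid range. The share of all probes with such a split was not counted. The series A pair of elaidic acid also had dimmer arrays, with medians of 25.5 and 32.6 against 53.9 and 57.8 in series B.

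CDKN2C encodes p18, an inhibitor of CDK4 and CDK6. It measured 6.55, 6.11, 6.47 and 6.34 in elaidic acid samples, 5.34, 4.67, 4.26 and 4.91 in oleic acid samples, 6.63, 6.43, 6.61 and 5.54 in stearic acid samples, and -0.01, 4.95, 4.19 and 3.51 in control samples. Every elaidic acid and stearic acid sample was above every oleic acid and control sample. Within elaidic acid the series B pair averaged 6.51 ± 0.06 and the series A pair 6.22 ± 0.17 (SD, n = 2 each), and the series A pair, at 6.11 and 6.34, was also above the 8 oleic acid and control samples of series A. The lowest value belongs to control replicate 1, the dimmest array, where the deposited intensity was 0.561, against 16.5 to 27.5 in the other control samples.

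MDM2 was the only member whose values with elaidic acid were all below control. It measured 6.81, 7.33, 6.95 and 6.96 in elaidic acid samples, 7.52, 7.28, 7.91 and 7.19 in oleic acid samples, 6.97, 7.71, 7.14 and 6.74 in stearic acid samples, and 7.70, 7.62, 8.39 and 7.67 in control samples. The highest elaidic acid sample, at 7.33, was below the lowest control sample, at 7.62, and both series contributed to this. Oleic acid and stearic acid values overlapped with control, in each case through 1 sample, oleic acid replicate 3 at 7.91 and stearic acid replicate 2 at 7.71.

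**Figure D1:**
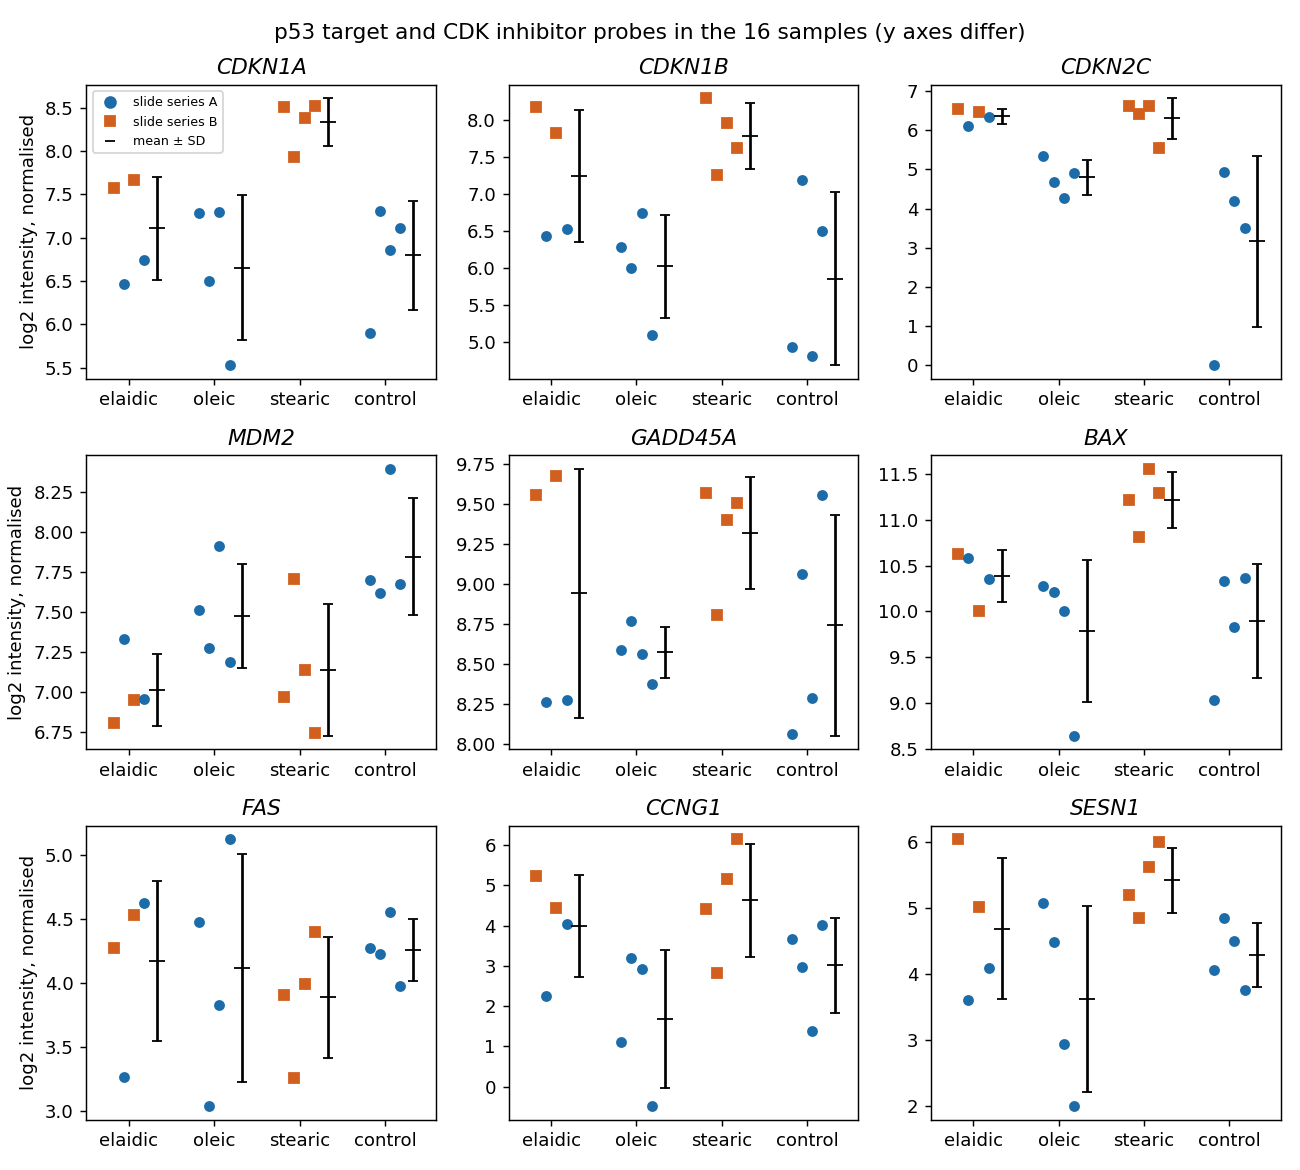
Normalised log2 intensity of 9 probes, 1 per gene, with elaidic, oleic, stearic and control samples from left to right on the x axis; each point is a sample, circles are slide series A and squares series B, and the bars are the mean ± SD of 4 samples. For CDKN1A and BAX all 4 stearic acid squares lie above every other sample, and for CDKN2C all elaidic and stearic acid points lie above all oleic acid and control points.

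BAX encodes a protein that perforates the outer mitochondrial membrane in apoptosis. It measured 10.62, 10.58, 10.01 and 10.35 in elaidic acid samples, 10.28, 10.22, 10.01 and 8.64 in oleic acid samples, 11.21, 10.82, 11.56 and 11.29 in stearic acid samples, and 9.03, 10.34, 9.83 and 10.37 in control samples. The stearic acid group lay above all 12 other samples. Oleic acid replicate 4 and control replicate 1, the 2 dimmest arrays, gave the 2 lowest values. Within elaidic acid the series B pair averaged 10.31 ± 0.44 and the series A pair 10.47 ± 0.16 (SD, n = 2 each), so that this gene did not split by series.

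FAS, the death receptor that binds FAS ligand, was dim on both probes, with a deposited intensity of at most 32.5. The tested probe, PH_hs_0008764, averaged 4.17 ± 0.62 in elaidic acid, 4.11 ± 0.89 in oleic acid, 3.89 ± 0.47 in stearic acid and 4.25 ± 0.24 in control samples (SD, n = 4 each), and all groups overlapped. The other probe, PH_hs_0004717, was at or below 0 in elaidic acid replicates 2 and 4 (-9.004 and -2.43 in deposited intensity) and was ranked within each array in place of a logarithm. Its mean percentile was 12.2 ± 13.04 in elaidic acid, 21.4 ± 13.4 in oleic acid, 21.3 ± 4.92 in stearic acid and 18.0 ± 8.75 in control samples (SD, n = 4 each). In the 6 comparisons its exact two-sided permutation p ran from 0.314 to 1, where 4 against 4 samples allow no p below 0.0286, and the adjusted p over these comparisons was 0.823 or more.

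GADD45A, a stress protein with roles in DNA repair and cell cycle arrest, divided by slide series within the elaidic acid group. Its series B samples of elaidic acid were at 9.55 and 9.67 and its series A samples of elaidic acid at 8.27 each. Oleic acid samples ran from 8.38 to 8.77, stearic acid samples from 8.81 to 9.57 and control samples from 8.07 to 9.56. The stearic acid group overlapped with control and elaidic acid, and it lay above oleic acid, with its lowest sample at 8.81 against 8.77 in the highest oleic acid sample.

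SESN1, a sestrin that restrains mTORC1 signalling under stress, was at 6.04, 3.603, 5.01 and 4.09 in elaidic acid samples. It ran from 1.99 to 5.07 in oleic acid samples, from 4.85 to 5.99 in stearic acid samples and from 3.75 to 4.84 in control samples. Stearic acid was above control without overlap, 4.85 against 4.84 in the nearest samples, and elaidic acid again held its higher values in series B. CCNG1 encodes cyclin G1, a p53 target that acts with protein phosphatase 2A on MDM2. It was dim, at 2.25 to 5.22 in elaidic acid, -0.49 to 3.19 in oleic acid, 2.81 to 6.15 in stearic acid and 1.38 to 4.02 in control samples. Elaidic acid samples of series B were at 5.22 and 4.44 for CCNG1, and those of series A at 2.25 and 4.05. All groups overlapped, and its deposited intensity in oleic acid samples was 0.345 to 10.7.

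With stearic acid, 4 of the 9 tested members rose relative to control and none fell (limma, adjusted p under 0.05 over 22939 probes): the CDK inhibitors CDKN1A, CDKN1B and CDKN2C, and BAX. Of all tested probes 29.8% were called in this comparison, 15.0% higher and 14.8% lower. CDKN2C was 3.15 ± 0.73 higher on the log2 scale (SE, 8.85-fold, 95% interval 1.58 to 4.71, adjusted p = 0.00791). CDKN1B was 1.93 ± 0.55 higher (3.80-fold, adjusted p = 0.0193), CDKN1A 1.54 ± 0.41 higher (2.90-fold, adjusted p = 0.0149) and BAX 1.33 ± 0.37 higher (2.51-fold, adjusted p = 0.0174). MDM2 had a difference of -0.71 ± 0.26 that missed the threshold (adjusted p = 0.0528). The remaining members did not pass, with 0.58 for GADD45A, -0.37 for FAS, 1.62 for CCNG1 and 1.13 for SESN1. CCNG1 was called with array weights (2.27, adjusted p = 0.0276), SESN1 with only the 2 groups in the fit (adjusted p = 0.0282) and MDM2 in 8 alternatives. Array weights called 10585 of the 22939 probes, and the fit to only the 2 groups called 7762. The fit with 1 probe per gene called 2578 of 12085 higher and 1583 lower. For 5 members the groups did not overlap, the 4 that rose and SESN1, all with stearic acid higher, against 18.7% of all probes separated in that direction. In bulk RNA such as this, a change in the share of cells that make a transcript and a change in transcript per cell cannot be told apart.

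None of the 4 was called when slide series was a block in the fit, and neither was any other probe of the array (0%). With that block CDKN2C was 2.86 higher (95% interval 0.06 to 5.67, adjusted p = 0.653) and BAX 1.48 higher (0.08 to 2.88, adjusted p = 0.626), close to the values without it. CDKN1A was at 0.53 (-0.88 to 1.93) and CDKN1B at 0.40 (-1.41 to 2.21). GADD45A moved to -0.77, SESN1 to -0.55 and CCNG1 to -0.06, each with the opposite sign. This contrast is tied together by the 4 elaidic acid samples, 2 in each series. Leaving out control replicate 1 kept the call for CDKN2C, at 2.11, and ended the other 3, with CDKN1A at 1.23 (adjusted p = 0.0541), CDKN1B at 1.61 (0.0692) and BAX at 1.04 (0.0634). CDKN1B also lost its call without control replicate 3 (1.58, adjusted p = 0.0627) or stearic acid replicate 1 (1.75, 0.0613), BAX without stearic acid replicate 3 (1.21, 0.0524), and CDKN1A on values that were not normalised (2.10, 0.0558). Without the 2 dimmest arrays, 3 members were called, CDKN1A at 1.23 (adjusted p = 0.0203), CDKN2C at 2.11 (0.00455) and BAX at 1.04 (0.0134), and CDKN1B at 1.60 was not (0.0565).

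With elaidic acid, no member passed the test against control, where 0.323% of all probes did. An unadjusted p under 0.05 was found for 3 of the 9 members and for 3283 of the 22939 probes. CDKN2C had the largest difference, 3.21 ± 0.73 (9.24-fold, 95% interval 1.65 to 4.77, adjusted p = 0.0840), with the groups apart. MDM2 differed by -0.83 ± 0.26 (0.562-fold, -1.39 to -0.28, adjusted p = 0.192), also with the groups apart. Of all tested probes 3.82% separated with elaidic acid higher and 2.68% with it lower. CDKN1B, at 1.38 ± 0.55 (0.21 to 2.55, adjusted p = 0.284), overlapped with control. CDKN1A differed by 0.31, GADD45A by 0.20, BAX by 0.50, FAS by -0.08, CCNG1 by 0.98 and SESN1 by 0.40, and each interval included 0.

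Within series A, with 2 elaidic acid samples against 4 control samples, CDKN2C was at 3.07 (95% interval 1.08 to 5.05) and MDM2 at -0.70 (-1.38 to -0.02) in the blocked fit, with adjusted p of 0.413 and 0.734; of all probes 0.0392% were called with the block. CDKN1A, GADD45A and SESN1 changed sign in it, to -0.19, -0.47 and -0.44. A fit to series A alone gave the same differences, with larger errors for CDKN2C (SE 1.06) and MDM2 (SE 0.34). Its adjusted p was 0.99996 for both. The control sample of lowest value carried weight for CDKN2C: without control replicate 1 the difference was 2.18 and passed the test (adjusted p = 0.0354), and without the 2 dimmest arrays it was 2.19 (adjusted p = 0.0466). It also passed with an offset of 50 added to every intensity (1.04, adjusted p = 0.00556), with an intensity trend in the variance (adjusted p = 0.0431) and with array weights (2.71, adjusted p = 0.00861), while CDKN1B (adjusted p = 0.0152) and MDM2 (-1.04, adjusted p = 0.0192) passed with array weights only. With array weights 4656 of the 22939 probes were called, 2632 higher and 2024 lower.

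With oleic acid, no member passed against control and no group was apart from it, and all samples of this comparison are of series A. No probe of the whole array was called (0%), and 1.23% of probes had groups that did not overlap in either direction. At an unadjusted p under 0.05 the test gave 602 probes, and among the members CDKN2C alone, at 1.64 ± 0.73 (95% interval 0.07 to 3.20). Without the 2 dimmest arrays that difference was 0.56. The other intervals ran across 0 and were widest for CCNG1, from -3.22 to 0.56.

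**Figure D2:**
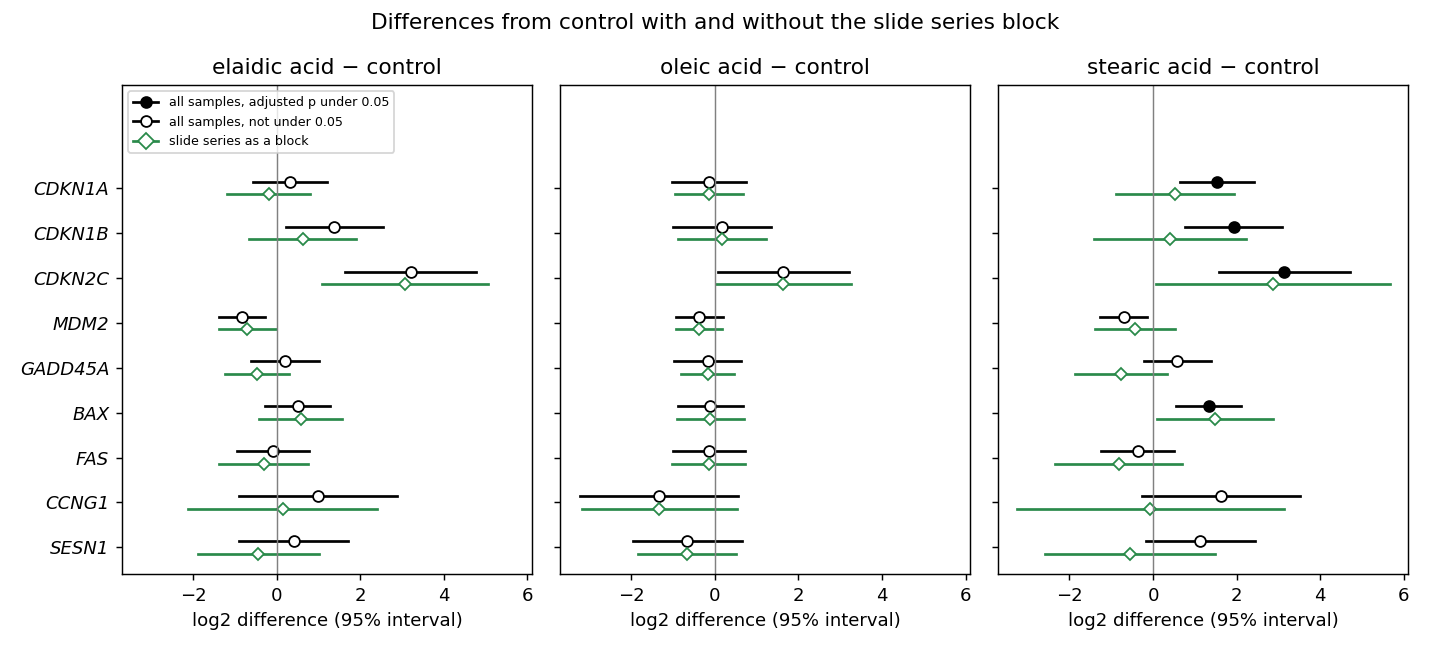
Log2 difference from control for each gene (rows), with its 95% interval on the x axis, for elaidic, oleic and stearic acid from left to right; circles are the fit to all 16 samples, filled where the adjusted p was under 0.05, and green diamonds the fit with slide series as a block. Filled circles are seen for CDKN1A, CDKN1B, CDKN2C and BAX with stearic acid, and among diamonds CDKN2C stays at 3.07 for elaidic acid and 2.86 for stearic acid.

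The 3 fatty acids were compared in pairs at the same dose and time. Elaidic acid against its cis isomer oleic acid gave no call among the 9 members, with 0.318% of all probes called. An unadjusted p under 0.05 was found for 3 members and for 4342 of the 22939 probes. CDKN2C was 1.57 ± 0.73 above (95% interval 0.01 to 3.13, adjusted p = 0.263) and was the only member with groups apart, where 4.07% of all probes separated with elaidic acid higher. CCNG1 was at 2.31 ± 0.89 (0.42 to 4.20, adjusted p = 0.209) and CDKN1B at 1.21 ± 0.55 (0.05 to 2.38, adjusted p = 0.252). Within series A these were 1.43, 1.47 and 0.45, and with the series block 0.0218% of all probes were called. CDKN1A was at 0.46 with an interval from -0.42 to 1.34, and MDM2 at -0.46 with one from -1.02 to 0.10, so that neither isomer was shown to be higher. With array weights 5 members were called with elaidic acid higher, CDKN1A (0.80, adjusted p = 0.0345), CDKN1B (1.60, 0.008999), CDKN2C (1.80, 0.00940), GADD45A (0.77, 0.0401) and FAS (0.93, 0.0380). In that fit 8953 of the 22939 probes were called, 4300 of them with elaidic acid higher. CDKN2C was also called with the offset of 50 (0.75, adjusted p = 0.0450).

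Elaidic acid against the saturated stearic acid gave no call either, with 0.397% of all probes called. An unadjusted p under 0.05 was found for 2 members and for 3330 of the 22939 probes. CDKN1A was at -1.22 ± 0.41 (0.429-fold, 95% interval -2.10 to -0.34, adjusted p = 0.210) and BAX at -0.83 ± 0.37 (0.563-fold, -1.62 to -0.04, adjusted p = 0.322). For both the groups were apart with elaidic acid lower, against 7.13% of all probes. With the series block the differences were -0.72 for CDKN1A (-1.71 to 0.28) and -0.91 for BAX (-1.89 to 0.08), and 0.00436% of all probes were called. A fit to series B alone, with 2 elaidic acid samples against 4 stearic acid samples, gave the same differences with adjusted p of 0.255 and 0.252. BAX was called with array weights (-1.06, adjusted p = 0.0219), where 1030 of the 22939 probes were called, 659 of them lower. CDKN2C was at 0.06 ± 0.73, with an interval from -1.50 to 1.62.

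Oleic acid against stearic acid gave the most calls among members: 5 fell and none rose, where 39.5% of all probes were called, 18.4% lower and 21.0% higher. The 5 were CDKN1A (-1.68 ± 0.41, adjusted p = 0.00864), BAX (-1.43 ± 0.37, adjusted p = 0.0105), CCNG1 (-2.95 ± 0.89, adjusted p = 0.0202), CDKN1B (-1.76 ± 0.55, adjusted p = 0.0233) and SESN1 (-1.80 ± 0.61, adjusted p = 0.0328). Groups were apart, with oleic acid lower, for CDKN1A, CDKN1B, CDKN2C, GADD45A and BAX, against 21.2% of all probes. These comparisons share the stearic acid samples with the ones above. None of the 5 was called with the series block, at -0.67, -1.59, -1.27, -0.23 and -0.12 for CDKN1A, BAX, CCNG1, CDKN1B and SESN1. Oleic acid and stearic acid share no slide series. Without oleic acid replicate 4, CDKN1A (-1.30) and BAX (-1.05) were still called, and CCNG1 (-2.21, adjusted p = 0.0759), CDKN1B (-1.42, 0.0826) and SESN1 (-1.25, 0.119) were not. CDKN1B was also not called without stearic acid replicate 1 or 3 (-1.59 and -1.70), CCNG1 without stearic acid replicate 3 or 4 (-2.78 and -2.44), and SESN1 without stearic acid replicate 1, 3 or 4 or oleic acid replicate 3 (-1.86 to -1.57). CDKN2C, at -1.51 ± 0.73 (adjusted p = 0.108), was called without control replicate 1 (-1.52, adjusted p = 0.00546) and without the 2 dimmest arrays (-1.55, adjusted p = 0.0145). Without those 2 arrays CDKN1A (-1.29) and BAX (-1.05) were called, and CDKN1B (-1.40, adjusted p = 0.0696), CCNG1 (-2.21, 0.0751) and SESN1 (-1.25, 0.125) were not. SESN1 was also not called with the offset of 50 (-0.50, adjusted p = 0.0616). CDKN2C and GADD45A were called with array weights and with only the 2 groups in the fit, and CDKN2C with the offset of 50. The counts of all probes called in these fits are not given here, so these calls are not read as particular to the members.

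The deposited intensities show how brightness runs through these values before normalisation. Stearic acid arrays had medians of 45.8 to 76.1 and control arrays medians of 19.95 to 72.8. Control replicate 4, with its median of 72.8, is the 1 control sample within the stearic acid range. CDKN1A was at 279 to 614 in the stearic acid samples, against 207 in that control sample. BAX was at 2261 to 4502 in the stearic acid samples, against 1792 there, and CDKN1B at 178 to 339, against 141. MDM2 was lower than in that sample, at 132 to 240 in the stearic acid samples, against 302 in control replicate 4. The control samples together ran from 115 to 339 for MDM2, which holds the whole stearic acid range. Without normalisation the MDM2 difference was -0.24. Stearic acid replicates 1 to 3 were dimmer than control replicate 4, with medians of 45.8 to 53.4. Stearic acid replicate 4, with a median of 76.1, had MDM2 at 177.

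**Figure D3:**
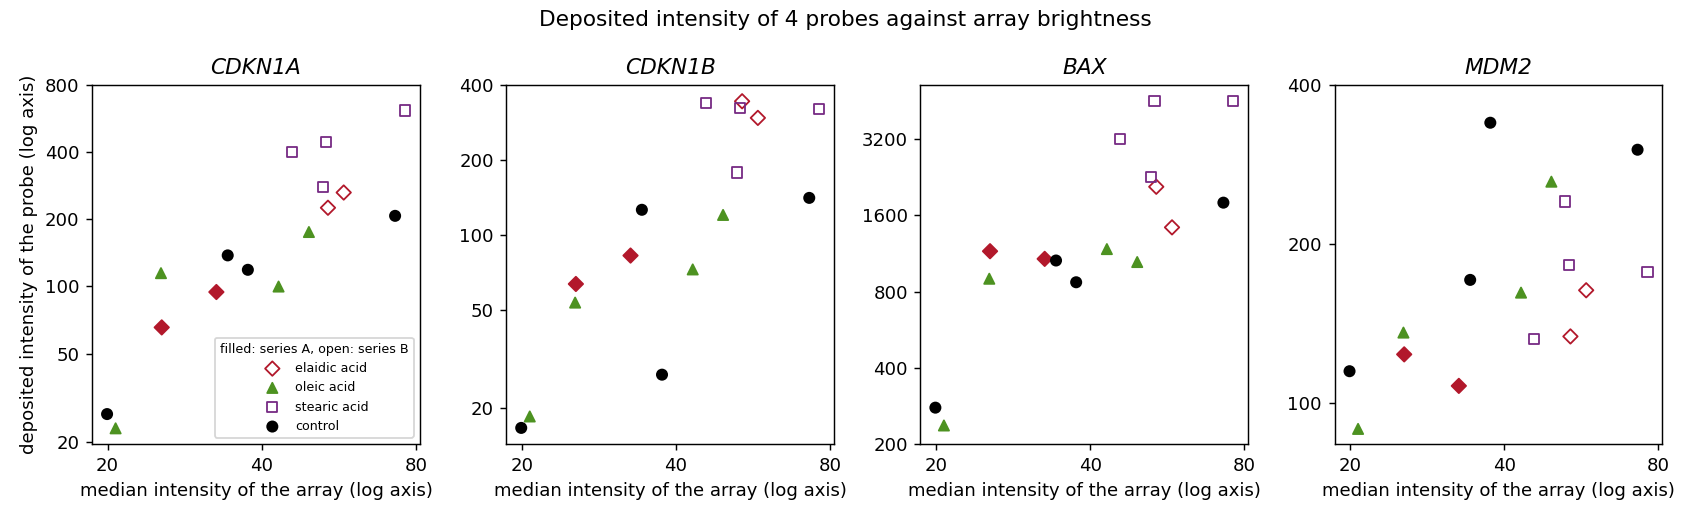
Deposited intensity of the CDKN1A, CDKN1B, BAX and MDM2 probes (y, log axis) against the median intensity of the array (x, log axis); each point is a sample, filled for slide series A and open for series B. Stearic acid squares lie above control replicate 4, the brightest control array, for CDKN1A, CDKN1B and BAX, and below it for MDM2.

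Genes that work with the members were described from 5 lists, which were chosen with earlier results of these data known. Each list gene is read from 1 probe, while the shares and medians of all probes include probes without a symbol. In the fit with 1 probe per gene, 2578 of 12085 rose and 1583 fell with stearic acid relative to control. The median there was 0.09, and for elaidic acid relative to control it was 0.02. Among other p53 targets, 36 of 46 were tested, and 9 rose and 2 fell with stearic acid relative to control, where 15.0% and 14.8% of all probes did. The median difference was 0.49 (0.21 with the series block), against -0.18 over all probes and 0.09 with 1 probe per gene. PCNA, the replication clamp, rose by 2.22, SFN, a 14-3-3 protein that holds cells before mitosis, by 1.33, GDF15, a secreted stress cytokine, by 1.83, and BBC3, which encodes the BAX activator PUMA, by 1.90. EDA2R, a receptor of the tumour necrosis factor family, fell by 1.31 and ASCC3, a helicase of alkylation repair, by 1.51. Without the 2 dimmest arrays 7 rose and 1 fell, without control replicate 3 only 5 rose, and without control replicate 1 only 1 fell. With elaidic acid none of the 36 passed against control (median 0.22, against -0.10 over all probes and 0.02 with 1 probe per gene). SFN fell by 1.26 with elaidic acid relative to stearic acid (adjusted p = 0.0455), and by 1.34 within series B, where it did not pass. Of the 16 fits that left out 1 sample, 13 called no gene of this list lower with elaidic acid relative to stearic acid. With oleic acid relative to stearic acid 9 of the 36 fell, where 18.4% of all probes did, and 3 rose, where 21.0% did. SFN at -1.75, PCNA at -2.53, GDF15 at -2.18 and SESN2 at -1.39 were among those that fell, and EDA2R at 1.04, STEAP3 at 0.72 and ATF3 at 0.62 were those that rose. Without oleic acid replicate 4 that count was 5 lower and 1 higher.

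Among p53 regulators 11 of 18 were tested, with a median difference from control of 0.02 for elaidic acid and 0.25 for stearic acid, and of -0.15 and -0.19 with the series block. USP7, the enzyme that removes ubiquitin from p53 and MDM2, rose by 1.92 with stearic acid relative to control (0.49 with the series block). It was the only 1 of the 11 called, where 15.0% of all probes rose and 14.8% fell. No regulator was called there without stearic acid replicate 1. With oleic acid relative to stearic acid 3 of the 11 fell, USP7 at -2.12 and the damage kinases ATR at -2.28 and ATM at -1.09, where 18.4% of all probes fell. With the series block these were -0.69, -0.18 and -0.14. With elaidic acid TP73 (-0.63), HIPK2 (0.54) and USP7 (1.17) had the smallest p against control and did not pass.

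Another list held other CDK inhibitors, the GADD45 relatives and cyclin G2, of which 6 of 8 were tested, with a median difference from control of -0.12 for elaidic acid and 0.33 for stearic acid. CDKN3, a phosphatase that acts on CDK2, rose by 1.27 with elaidic acid (adjusted p = 0.0401) and by 0.96 with stearic acid (adjusted p = 0.0121) relative to control. It was the only 1 of the 6 called in either comparison. Of all probes 0.323% were called with elaidic acid, and with stearic acid 15.0% rose and 14.8% fell. The mean of CDKN3 was 7.88 ± 0.22 in elaidic acid, 7.00 ± 0.20 in oleic acid, 7.56 ± 0.26 in stearic acid and 6.61 ± 0.47 in control samples (SD, n = 4 each). In the fit with the series block CDKN3 was 1.36 higher with elaidic acid (adjusted p = 0.148). No gene of this list passed for elaidic acid relative to control in 14 of the 16 fits that left out 1 sample, or without the 2 dimmest arrays. For stearic acid CDKN3 was 1.12 higher with the series block (adjusted p = 0.518).

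The cyclins, CDKs and pocket proteins on which CDK inhibitors act had 17 tested genes, and 7 of them rose with stearic acid relative to control while none fell, where 15.0% of all probes rose and 14.8% fell, with a median of 0.25. PCNA, which this list shares with the p53 targets, rose by 2.22, CKS1B, which helps SKP2 to tag p27 for destruction, by 2.15, cyclin A2 (CCNA2) by 2.53 and RB1 by 1.80. With the series block these were 1.19, 1.18, 0.46 and 0.09. Without control replicate 1, 4 rose. With elaidic acid none passed, and SKP2 (1.06, adjusted p = 0.0642), CCNA2 (2.49, 0.0729) and CKS1B (1.72, 0.0882) had the smallest p. With oleic acid relative to stearic acid 7 of the 17 fell and 2 rose, where 18.4% of all probes fell and 21.0% rose: PCNA at -2.53, CKS1B at -2.18, cyclin E1 (CCNE1) at -2.82 and CCNA2 at -2.01 among those that fell, and E2F1 at 1.15 and CDK2 at 1.02. With the series block CCNE1 and CCNA2 changed sign, to 0.30 and 0.07, PCNA and CKS1B were at -1.51 and -1.21, and E2F1 and CDK2 at 0.05 and 0.11. Without oleic acid replicate 4 these counts were 4 and 1. On values that were not normalised none of these rose and 9 fell.

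Partners of BAX and FAS gave 13 tested genes, with 5 higher and 2 lower for stearic acid relative to control, where 15.0% and 14.8% of all probes were. The median was 0.90, against -0.18 over all probes and 0.09 with 1 probe per gene. With the series block the list median was -0.15. BAD, DIABLO and cytochrome c (CYCS), which promote apoptosis, rose by 1.33, 2.08 and 0.90, and MCL1, which blocks it, rose by 2.95. BCL2L11, which encodes the activator BIM, fell by 1.53 and FAS ligand (FASLG) by 0.95. With the series block BAD was at 1.43, DIABLO at 0.22, CYCS at 0.17, BCL2L11 at -0.86 and FASLG at -0.30, and MCL1 changed sign, to -1.24. Without stearic acid replicate 1 only 2 of the 13 rose, and without control replicate 1 only 1 fell. BID, which links FAS to BAX, rose by 1.24 with elaidic acid relative to oleic acid (adjusted p = 0.0456), and no gene of this list was called there in 13 of the 16 fits that left out 1 sample. With elaidic acid relative to control BID (0.95), BCL2L11 (-0.90) and BAD (0.60) did not pass. With oleic acid relative to stearic acid 8 of the 13 fell, where 18.4% of all probes did, among them BAD (-1.03), BID (-1.01), CYCS (-0.97) and MCL1 (-3.26), and BCL2L11 (1.65) and FASLG (1.16) rose. With the series block MCL1 changed sign, to 0.93, and CYCS was at -0.24, BAD at -1.13 and BID at -1.15. Without oleic acid replicate 4, 4 fell. With oleic acid no gene of the 5 lists passed against control. None passed in any comparison with the series block.

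**Figure D4:**
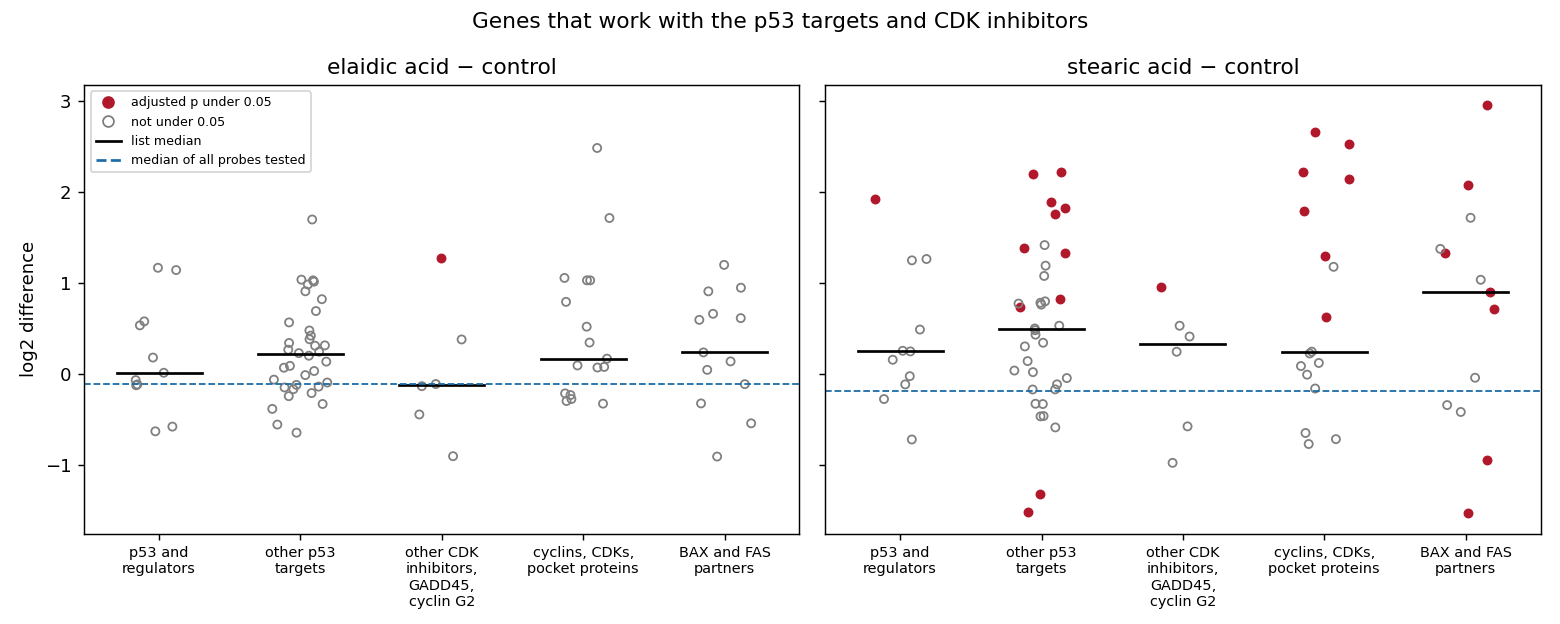
Log2 difference from control (y) of each tested gene in 5 gene lists (x), for elaidic acid on the left and stearic acid on the right; red points had an adjusted p under 0.05, black bars are list medians and the dashed line is the median of all probes tested. With elaidic acid 1 point is red, CDKN3, and with stearic acid red points stand on both sides of 0.

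Over the 16 samples the genes whose normalised log2 values were most like those of CDKN1A by Pearson correlation were SMAP1 (0.974), HSD17B10 (0.973) and ATP1B1 (0.973), and after each series mean was subtracted the same correlations were 0.932, 0.925 and 0.925. Among the members BAX was closest to CDKN1A, at 0.873 and 0.790 after series means, and CDKN1B stood at 0.854 and 0.599. For MDM2 the most alike genes were LRRC43 (0.845), CRABP1 (0.819) and WRNIP1 (0.810), or 0.774, 0.725 and 0.707 after series means. MDM2 and CDKN1A correlated at -0.32, and at 0.244 after series means. These points share groups, series and array brightness, and the values are a description.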

How the data were processed

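RNA of 16 HepG2 samples in 4 groups of 4 was labelled with Cy5 and read on 1-colour arrays. The authors deposited 1 background-subtracted linear intensity per probe and sample; per the labels each sample had 2 technical replicate arrays, and how the authors combined them, the background method and the genome build are not given in the sources used here. The 4 samples of a group are biological replicates per the labels' design text, with no word on whether they were grown in parallel. The probe table gave 1 symbol for 17397 probes and none for 13571.

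Probes that were not above 0 in all samples (8029, 25.9%) were dropped, and log2 values of the other 22939 were quantile normalised. Each contrast was fitted in R 4.3.3 by limma 3.58.1 (lmFit, eBayes, two-sided, Benjamini-Hochberg over all 22939 probes, threshold 0.05) on all 16 samples; errors are its standard errors. The FAS probe left out was tested by exact permutation of percentile ranks. Figures used matplotlib 3.10.9 in Python 3.11.15. The scripts were tested on simulated data. The number of arrays limits the precision.

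The members and lists were chosen with earlier results of these data known. Named were every member probe, in each list and contrast up to 4 called genes of smallest p in each direction (where a list had none called for elaidic acid against control, the 3 of smallest p), and the 3 genes most like CDKN1A and MDM2. Some genes that this rule names are not reported here. A list gene was read from its brightest tested probe. Alternatives were other normalisations, filters and variance models, slide series and replicate number as blocks, each sample left out and, chosen after seeing the data, the 2 dimmest arrays left out. Same-numbered samples deviated together (correlation of deviations over 0.1) in 7 of 24 pairs, and no pairing by replicate number was shown. The check cannot exclude pairing, since deviations within the elaidic acid group also hold its split between the slide series.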

Additional observations from a re-analysis of the deposited data

Results flagged for a closer look

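In groups of 4 samples, a sample was singled out where its gap to the nearest other sample, as a share of the range of the group, passed the 95% limit of Dixon's test. Of 40 groups tested, chance marks about 1 in 20, and 2 were marked. For MDM2, control replicate 3 was at 8.39 on the normalised log2 scale, against 7.62 to 7.70 in the other control samples. For BAX, oleic acid replicate 4, the second dimmest array, was at 8.64, against 10.01 to 10.28 in the other oleic acid samples. The cause was not tested in either case.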

How the results depend on the processing

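The probes called over the whole array moved with the processing as follows, and the cause was not tested. For elaidic acid relative to control, 74 were called, with 0 on values without normalisation, 218 with an offset of 50, 189 without the dimmest 50% of probes, 154 with an intensity trend, 4656 with array weights, 9 with the series block, 0 within series A, 0 with only the 2 groups in the fit, 33 without the 2 dimmest arrays, and 24 to 113 when 1 sample was left out. For oleic acid relative to control, 0 were called (602 at an unadjusted p under 0.05), 1 with array weights and 0 with any 1 sample left out. For stearic acid relative to control, 6825 were called, with 3099 without normalisation, 4161 with 1 probe per gene, 10585 with array weights, 0 with the series block, 4452 without the 2 dimmest arrays and 3507 to 8206 with 1 sample left out. For elaidic acid relative to oleic acid, 73 were called, with 2 without normalisation, 216 with the offset, 180 without dim probes, 126 with the trend, 8953 with array weights, 5 with the series block, 0 within series A, 0 with only the 2 groups, 23 without the 2 dimmest arrays and 3 to 175 with 1 sample left out. For elaidic acid relative to stearic acid, 91 were called, with 0 without normalisation, 582 with the offset, 294 without dim probes, 223 with the trend, 1030 with array weights, 1 with the series block, 0 within series B, 0 with only the 2 groups, 283 without the 2 dimmest arrays and 0 to 157 with 1 sample left out. For oleic acid relative to stearic acid, 9057 were called, with 5125 without normalisation, 5266 with 1 probe per gene, 0 with the series block, 6023 without the 2 dimmest arrays and 4750 to 9980 with 1 sample left out. With replicate number as a block, by which no pairing was shown, 28 were called for elaidic acid relative to control, 4 relative to oleic acid and 0 relative to stearic acid, against 5283 for stearic acid relative to control and 7360 for oleic acid relative to stearic acid. Without normalisation the split of calls was 2853 higher and 246 lower for stearic acid relative to control (3432 and 3393 with it), and 301 higher and 4824 lower for oleic acid relative to stearic acid (4827 and 4230 with it). For elaidic acid relative to stearic acid, median scaling gave 9 higher and 120 lower, against 20 and 71. The median of all probes was -0.18 for stearic acid relative to control and 0.26 without normalisation, 0.21 and -0.39 for oleic relative to stearic acid, 0.07 and -0.28 for elaidic relative to stearic acid, and -0.13 and 0.12 for elaidic relative to oleic acid.

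Of the values of single members under all alternatives, 1521 kept their side of the threshold, 32 lost a call, 31 gained one, and no called value changed sign. Among values not called in the fit as reported, 62 changed sign. MDM2 for stearic acid relative to control passed in 8 alternatives, at -0.90 to -0.55. The fit with 1 probe per gene and the filter on dim probes test fewer probes by construction, and the filter left 5 of the 9 members. Signal over background also limits the dim members FAS, CCNG1 and SESN1.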
